A study of Mus musculus with 19 samples.

Results

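The transcripts described here are 30 genes of PPARα signalling and fatty acid oxidation, chosen as a named list of symbols with their Ensembl identifiers, out of 39179 gene identifiers in a table of RNA-seq counts from mouse liver. All 30 were present in the table, each had at least 2 counts in each of the 10 liver tumours analysed, and all 30 had a mean abundance of at least 0.5 CPM, where CPM is counts of a gene per 1000000 counts after scaling between libraries. The tumours were those numbered 04 to 13, from male mice heterozygous for Ctnnb1tm1Mmt, an allele whose exon 3 is removed by Cre so that β-catenin is stabilised, and homozygous for Gt(ROSA)26Sortm1(MYC)Djmy, a human MYC transgene switched on by Cre. Cre was given to adult mice with AAV8.TBG.PI.Cre.rBG at 640000000 genome copies per mouse, and its TBG promoter is active in hepatocytes, so the tumours arose from recombined hepatocytes and were collected at the clinical end point. The series also holds 3 control livers and 3 livers of a high AAV control group with the same alleles, as well as 3 further tumours, none of which was analysed here. No value below is therefore set against liver without a tumour. Bulk RNA cannot tell fewer cells of a type apart from less RNA per cell.

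PPARα is a nuclear receptor that fatty acids activate. With its partner RXR it binds direct repeats of a hormone receptor half-site and raises transcription of genes for fatty acid transport, for mitochondrial and peroxisomal β-oxidation and for microsomal ω-oxidation. In liver it carries the response to fasting, when adipose tissue releases fatty acids that hepatocytes oxidise and turn into ketone bodies. Some of its targets, such as the Cyp4a genes, are switched over a wide range by the receptor, whereas the core enzymes of the mitochondrial pathway are present in fed and fasted liver alike.

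The libraries held 11687034 (tumour 07) to 36964427 (tumour 13) counts over genes, so that 3 counts corresponded to 0.0812 to 0.257 CPM. These floors cover counting error only. Hepatocyte markers were abundant in each tumour, with a summed level over 10 genes of 37862 to 64151 CPM and Alb, the gene of serum albumin, at 13041 to 23970 CPM. Of the urea cycle genes of the periportal zone, Ass1 was at 11.2 to 43.3 CPM, and Cps1 ran from 4.54 CPM in tumour 05 to 228 CPM in tumour 12, with 191 and 183 CPM in tumours 09 and 08. Glul and Cyp2e1, genes of the zone around the central vein, were at 5173 to 14687 CPM and 5236 to 14198 CPM. A list of 6 genes for RNAs without a poly(A) tail summed to 2.23 to 83.2 CPM, and the 3 highest libraries by that sum were tumours 05, 06 and 07 at 64.8, 50.1 and 83.2 CPM. Tumour 07 also had the highest summed level of 6 blood cell genes, 5935 CPM against a median of 242 CPM over tumours. The column names carry a tag whose first part groups tumours 04 to 06, tumours 07 and 08, and tumours 09 to 13 into 3 tag families. The full tag is shared by tumours 05 and 06, by tumours 07 and 08, by tumours 09 and 10 and by tumours 11 to 13, which leaves 5 distinct tags. What the tag stands for is not stated in the labels, and tumours with the same tag may not be independent, so that n = 10 below counts tumours.

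The receptor and its partners in transcription differed widely in level. Ppara (ENSMUSG00000022383, chromosome 15, 85734910 to 85806851 in GRCm38.p6) was measured at 91.9 ± 24.0 CPM (SD, n = 10), lowest in tumour 07 at 59.4 CPM, with a median of 94.7 CPM and highest in tumour 11 at 140.6 CPM. Creb3l3, a hepatocyte transcription factor released by proteolysis that acts with PPARα on lipid genes, was measured at 407 ± 90.8 CPM and ranged from 287 CPM (tumour 13) to 596 CPM (tumour 11). Tumour 11 thus held the highest level of both factors. Ppargc1a, the coactivator PGC-1α, was scarce at 8.33 ± 2.65 CPM, with 3.45 CPM in tumour 07 and 12.2 CPM in tumour 09 as its extremes. Divided by the length of the canonical transcript, the mean levels were 25.9 CPM per kb for Ppara, 166 CPM per kb for Creb3l3 and 1.29 CPM per kb for Ppargc1a. Exons of other genes cover 27.4% of the exon bases of Ppara, and without a known strand setting reads from overlapping genes may be counted with either or with none. The same holds for 38.2% of Acadvl, 31.1% of Hadha and 22.5% of Bdh1.

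Genes of fatty acid entry and activation followed. Fabp1, which encodes the liver fatty acid binding protein, was the most abundant member, at 3103 ± 965 CPM (SD, n = 10) and 5501 ± 1710.3 CPM per kb. Its lowest level was 1830 CPM in tumour 06, its median 3223 CPM and its highest 4428 CPM in tumour 10, without a gap between high and low tumours. The upstream sequence of Fabp1 is shown because it was the single member promoter with a match to the repeat that PPARα and RXR bind, spaced by 1 base. It covers the 250 bases before the start of the gene, chr6:71199629-71199878 on the plus strand of GRCm38.p6, from RefSeq, and the capitals mark the match, read as TGACCTATGGCCT at positions -67 to -55 relative to the start.
Fabp1: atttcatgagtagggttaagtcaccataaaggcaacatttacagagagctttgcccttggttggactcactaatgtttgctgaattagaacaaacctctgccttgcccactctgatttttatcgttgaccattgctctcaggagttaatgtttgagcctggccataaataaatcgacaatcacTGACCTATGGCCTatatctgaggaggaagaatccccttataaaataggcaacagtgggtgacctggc
The motif searched on both strands was AGGNCANAGGNCA, which occurs in 125 of the 32851 promoter windows of 300 bases in the same RefSeq table (0.381%). The stricter AGGTCANAGGTCA, which is contained in the first, occurs in 13 windows (0.0396%) and in none of those of the 24 members with an entry. Cyp4a10, Cyp4a14, Angptl4, Decr1, Vnn1 and Cidea had no entry. A match is a description of letters in a window and not of a bound site.

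Acot1 and Acot2 are neighbouring genes on chromosome 12 for thioesterases that release fatty acids from coenzyme A, in the cytosol and in mitochondria, respectively. Acot1 was measured at 218 ± 76.2 CPM, from 137 CPM in tumour 06 through a median of 205 CPM to 385 CPM in tumour 07. Acot2 was measured at 61.5 ± 22.6 CPM, from 30.8 CPM in tumour 11 through a median of 62.0 CPM to 110.2 CPM in tumour 05. The ratio of Acot1 to Acot2 ran from 2.00 in tumour 05 to 5.78 in tumour 07, so the pair did not keep a fixed proportion. Of the 31-base words in their transcripts, 44.9% for Acot1 and 34.2% for Acot2 occur elsewhere in the genome (GRCm39), and reads from such words cannot be placed uniquely. Vnn1, the pantetheinase that recycles the vitamin part of coenzyme A, varied more, from 20.2 CPM in tumour 10 through a median of 58.8 CPM to 147 CPM in tumour 12.

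The carnitine shuttle carries long-chain acyl groups into mitochondria. Cpt1a, its outer membrane enzyme and the step that malonyl-CoA inhibits, was measured at 541 ± 216 CPM (SD, n = 10), with 248 CPM in tumour 05, a median of 513 CPM and 887 CPM in tumour 12. Tumours 11, 12 and 13 were the highest, at 807, 887 and 750.2 CPM, and tumours 04 and 05 the lowest, at 318 and 248 CPM. Slc25a20, the carrier across the inner membrane, lay between 112 and 188 CPM, and Cpt2, the matrix enzyme that ends the shuttle, between 181 and 340.1 CPM.

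The mitochondrial β-oxidation enzymes varied least. Acyl-CoA dehydrogenases for very long, long and medium chains are encoded by Acadvl (343 to 502 CPM), Acadl (258 to 409 CPM) and Acadm (394 to 553 CPM). Hadh, the dehydrogenase for medium and short hydroxyacyl chains, was measured at 521 ± 56.9 CPM and spanned 1.39-fold from the lowest to the highest tumour. Decr1 and Eci1, which prepare unsaturated fatty acids for the pathway, ranged from 153 to 288 CPM and from 188 to 339 CPM, and Etfdh, which passes electrons from the dehydrogenases to ubiquinone, from 242 to 363 CPM. Of the 31-base words of the Acadm transcript, 29.0% occur elsewhere in the genome.

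Hadha and Hadhb encode the subunits of the mitochondrial trifunctional protein and start back to back on chromosome 5. Hadha was measured at 626 ± 106 CPM (SD, n = 10), from 465 CPM in tumour 07 through a median of 604 CPM to 799.9 CPM in tumour 05. Hadhb was measured at 26.4 ± 5.37 CPM, from 21.2 CPM in tumour 06 through a median of 25.2 CPM to 37.5 CPM in tumour 09. The count of the 2 subunits therefore differed by a median of 24.7 times, from 15.5 in tumour 09 to 35.2 in tumour 05, and the highest Hadhb level lay below the lowest Hadha level. Per kb of transcript the means were 155 CPM for Hadha and 13.0 CPM for Hadhb. Of the 31-base words of the Hadhb transcript, 88.6% occur elsewhere in the genome, against 0.299% for Hadha, so the low Hadhb count cannot be told apart from reads lost to copies. The shared upstream region is shown because it lies between the starts of the pair: the 250 bases before Hadhb, chr5:30155003-30155252 on the plus strand of GRCm38.p6, from RefSeq, with capitals for the 228 bases (30155003 to 30155230) that also lie within 250 bases upstream of Hadha on the minus strand.
Hadhb: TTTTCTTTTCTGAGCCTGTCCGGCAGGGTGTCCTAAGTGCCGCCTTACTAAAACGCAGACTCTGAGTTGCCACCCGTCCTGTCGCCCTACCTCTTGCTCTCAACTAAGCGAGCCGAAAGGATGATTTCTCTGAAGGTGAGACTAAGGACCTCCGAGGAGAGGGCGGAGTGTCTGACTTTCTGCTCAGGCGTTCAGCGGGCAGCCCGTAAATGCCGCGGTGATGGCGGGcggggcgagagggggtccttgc

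Peroxisomes shorten very long chains before mitochondria take over. Ehhadh, the peroxisomal bifunctional enzyme, was measured at 883 ± 346 CPM (SD, n = 10), from 382 CPM in tumour 11 through a median of 929 CPM to 1413 CPM in tumour 08. Tumours 11 and 12 stood lowest, at 382 and 406 CPM, and the next was tumour 06 at 687 CPM. Acaa1b, a peroxisomal thiolase, ranged from 891 CPM in tumour 09 through a median of 1988 CPM to 3836 CPM in tumour 07. Its near copy Acaa1a was 3.86 to 8.57 times less abundant, and 36.9% of the words of Acaa1b occur elsewhere, so the split of reads within this pair is uncertain. Pex11a, which acts in the division of peroxisomes, ranged from 78.4 CPM in tumour 09 through a median of 199.6 CPM to 304 CPM in tumour 05.

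The ω-oxidation genes Cyp4a10 and Cyp4a14 encode microsomal cytochromes that hydroxylate the last carbon of fatty acids and are among the genes most strongly induced by PPARα in mouse liver. Cyp4a14 was measured at 1298 ± 665 CPM (SD, n = 10), from 465 CPM in tumour 11 through a median of 1168 CPM to 2167 CPM in tumour 07. Tumours 05, 07, 08 and 10 lay between 1833 and 2167 CPM, and the other 6 between 465 and 1202 CPM. Cyp4a10 was measured at 422 ± 259 CPM, from 139 CPM in tumour 09 through a median of 329 CPM to 946 CPM in tumour 07. The same 4 tumours were its highest, between 556 and 946 CPM, and the others lay between 139 and 358 CPM. Cyp4a14 exceeded Cyp4a10 in each tumour, by 2.28 times in tumour 11 to 5.51 times in tumour 13. Of the 31-base words, 44.6% of those of Cyp4a10 and 1.98% of those of Cyp4a14 occur elsewhere in the genome.

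Among lipid droplet genes, Plin2, which coats droplets in hepatocytes, was measured at 922 ± 211 CPM (SD, n = 10) and ranged from 716 CPM in tumour 11 through a median of 883 CPM to 1329 CPM in tumour 05, and 18.6% of its 31-base words occur elsewhere. Cidea, which promotes the fusion of droplets and is characteristic of brown adipocytes and fatty liver, was the rarest and the most variable member. It rested on 2 to 146 counts, at 0.125 CPM in tumour 11, a median of 0.543 CPM and 10.1 CPM in tumour 04. Tumours 04, 05 and 09 were at 10.1, 6.39 and 1.52 CPM, and the other 7 at 0.125 to 0.586 CPM, with tumour 11 below its own floor. Of 8 adipocyte genes, Lep and Ucp1 were at 0 in the 10 tumours, and Adipoq and Plin1 reached at most 0.0639 and 0.192 CPM. Fabp4, which endothelial cells also express, was the single member of that list above the filter, and the summed list ran from 6.45 CPM (tumour 12) to 94.9 CPM (tumour 07).

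The last group held ketone, fuel switch and secreted factors. Bdh1, which interconverts the ketone bodies, was measured at 687 ± 238 CPM (SD, n = 10), from 233 CPM in tumour 05 through a median of 703 CPM to 1068 CPM in tumour 11. Tumour 05 was also the highest for Pdk4, the kinase that blocks entry of pyruvate into the citric acid cycle, with 509 CPM, where the median was 117 CPM and tumour 10 was lowest at 66.2 CPM. Angptl4, a secreted inhibitor of lipoprotein lipase, ranged from 85.4 CPM in tumour 07 through a median of 117 CPM to 208 CPM in tumour 05. Fgf21, the fasting hormone of the liver, stayed between 15.5 CPM in tumour 09 and 33.2 CPM in tumour 11.

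**Figure D1:**
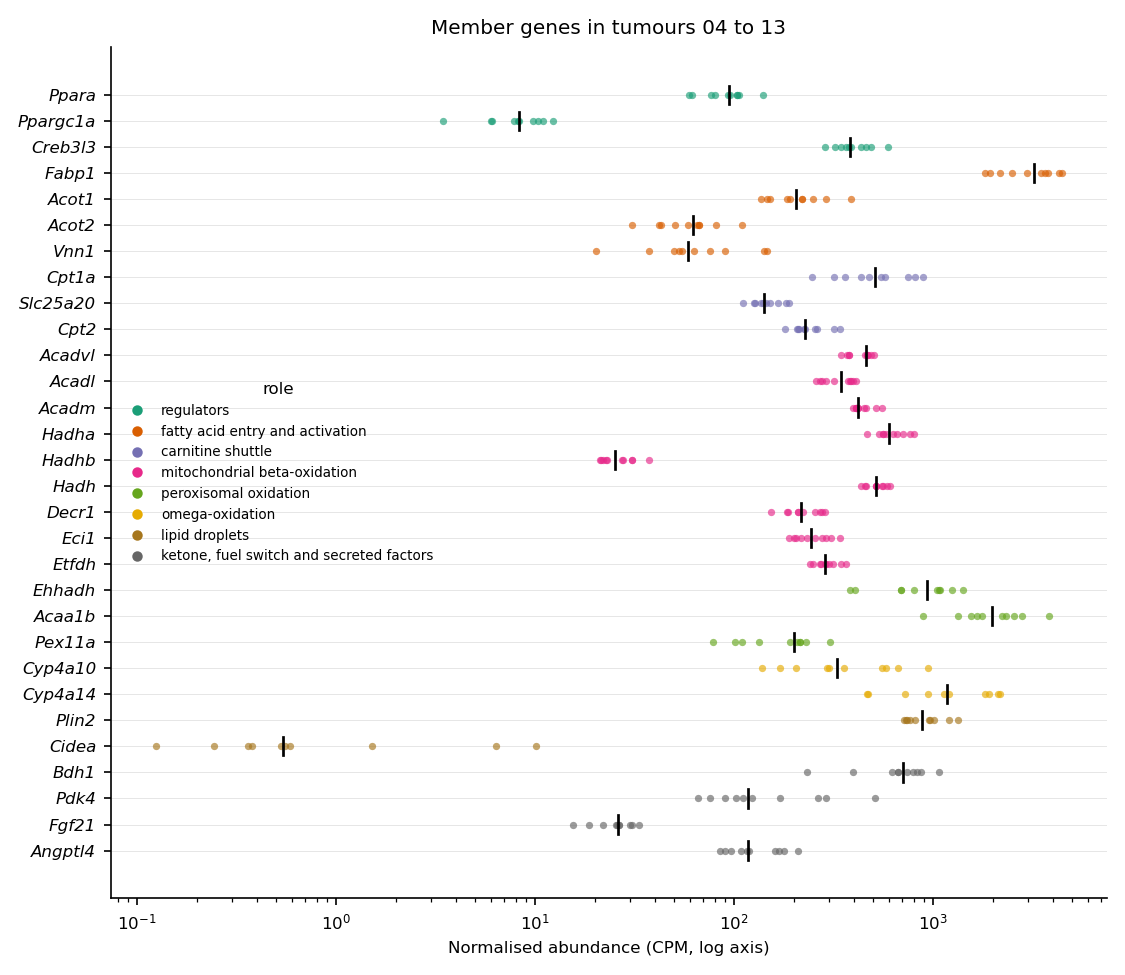
Abundance of the 30 genes in tumours 04 to 13, as CPM on a log axis. Each point is 1 tumour, the black bar is the median over 10 tumours, and colours give the role. Cidea alone falls below 1 CPM, and the mitochondrial β-oxidation genes form the tightest rows.

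Spread between tumours differed by role. The SD of log2 CPM over tumours had a median of 0.41 over the 30 genes and of 0.38 over the 14786 genes tested, and 15 of 30 lay above the latter. For the 12 genes of the carnitine shuttle and mitochondrial β-oxidation the median SD was 0.25, and only Cpt1a (0.60) lay above the median of all genes. For the other 18 genes the median SD was 0.56, and 14 of 18 lay above it. The 1154 genes with a mean CPM at least as high as that of the least abundant of these 12 genes other than Hadhb had a median SD of 0.34. Acadm and Hadh, each with an SD of 0.16, stood at percentiles 2.85 and 2.64 of all genes by SD. Cidea, with an SD of 1.81, was the single member above 1 log2 unit, as were 10.1% of all genes. The next were Pdk4 (0.95), Cyp4a10 (0.91), Vnn1 (0.86) and Cyp4a14 (0.85). Between the lowest and the highest tumour, 12 of 30 genes differed by less than 2-fold. These are descriptions of spread, and no test of the groups of genes against each other was made.

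**Figure D2:**
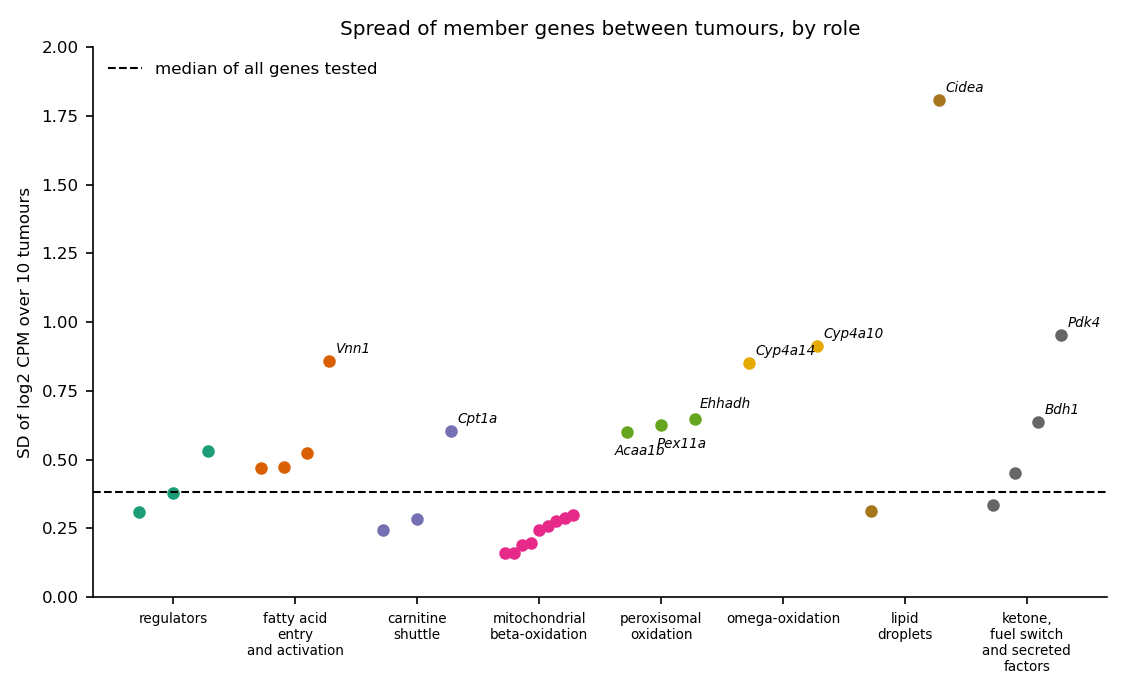
SD of log2 CPM over 10 tumours for each of the 30 genes, grouped by role, with the median of all 14786 genes tested (0.38) as a dashed line. The 9 mitochondrial β-oxidation genes lie below the line at 0.16 to 0.30, and the peroxisomal and ω-oxidation genes lie above it at 0.60 to 0.91.

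The tumours did not share 1 order over the genes. Tumours 10 and 08 were above the mean log2 CPM for 26 and 25 of the 30 genes, whereas tumours 09 and 11 were above it for 6 and 8. Tumour 09 had the lowest summed level of hepatocyte markers, 37862 CPM, and the highest of stellate cell and fibroblast genes, 1716 CPM. The part of these in its values was not tested. Tumour 05 held the highest level of 6 genes (Acot2, Hadha, Pex11a, Plin2, Pdk4 and Angptl4) and the lowest of 3 (Cpt1a, Acadl and Bdh1). In that tumour the summed level of 9 genes of the ATF4 response to amino acid shortage was also the highest, 2104 CPM against a median of 573 CPM, and its part in these values was not tested. Tumour 07 held the highest level of 5 genes (Acot1, Acadvl, Acaa1b, Cyp4a10 and Cyp4a14) and the lowest of another 5 (Ppara, Ppargc1a, Cpt2, Hadha and Angptl4). It was the shallowest library and the one with the most blood cell RNA, and the part of these in its values was not tested.

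**Figure D3:**
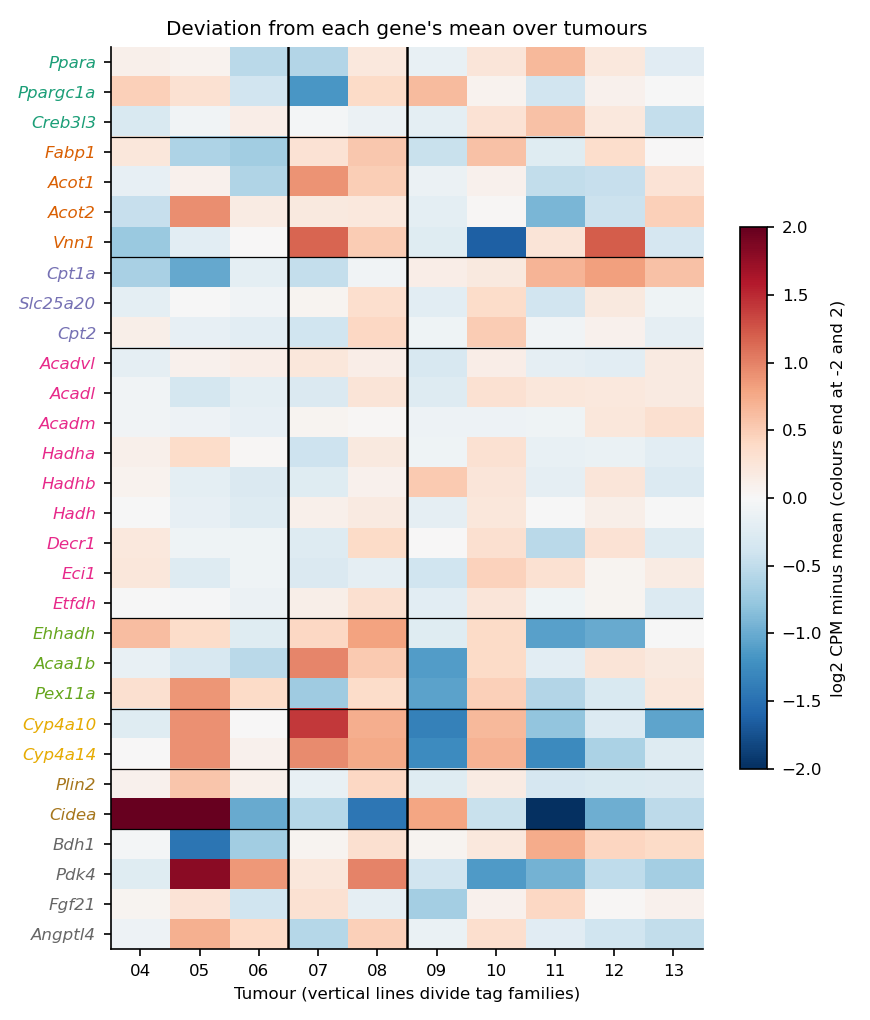
Deviation of log2 CPM from the mean of each gene over 10 tumours, with genes in rows by role and tumours in columns. Red is above and blue below the mean, colours end at -2 and 2, and vertical lines divide the tag families. Columns 08 and 10 are mostly red and columns 09 and 11 mostly blue, and the mitochondrial rows are the palest.

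Whether the other genes followed Cyp4a14 was asked by a fit of its log2 CPM as a covariate, across all genes, in edgeR. Each slope is the change in log2 CPM of a gene per log2 unit of Cyp4a14. Cyp4a10 had the smallest p of all 14785 genes, with a slope of 0.96 ± 0.15 (SE, n = 10, p = 3.15e-05), but edgeR's adjusted p was 0.47, so it was not called. No gene was called at an adjusted p of 0.05 (0 of 14785, 0%), and thus 0 of 29 members. At an unadjusted p under 0.05 there were 10 of 29 members (34.5%), beside 7.18% of all genes. Of these, 9 had a positive slope and 1, Cpt1a, a negative one, where 3.33% and 3.85% of all genes had a positive and a negative slope at that level.

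The members with a positive slope and an unadjusted p under 0.05, none of them called, came from several compartments. They were Cyp4a10, the peroxisomal genes Ehhadh (0.58 ± 0.16), Pex11a (0.52 ± 0.18) and Acaa1b (0.42 ± 0.18), the thioesterases Acot2 (0.43 ± 0.15) and Acot1 (0.37 ± 0.14), the droplet protein Plin2 (0.29 ± 0.10), the kinase Pdk4 (0.77 ± 0.27) and the dehydrogenase Acadvl (0.18 ± 0.08), where each value is a slope ± SE. Cpt1a had a slope of -0.46 ± 0.17 (unadjusted p = 0.0214, edgeR adjusted p = 0.656). Ppara itself had a slope of -0.15 ± 0.13. Over the 29 members 20 slopes were positive, with a median of 0.13, beside 51.9% of all genes and a median of 0.01.

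The count of 10 depended on single tumours. It was 6 without tumour 05, beside 4.79% of all genes in that setting, and 4 without tumour 11, beside 8.18%. It was also 4 without tumours 09 and 11, beside 8.40%, and 4 with the tag family as a term in the model, beside 4.26%. The slope of Cyp4a10 stayed positive in 20 of 20 alternative settings, between 0.82 and 1.13, and DESeq2 called it at an adjusted p of 6.53e-06, where that tool called 67 genes in all (0.462%). Of the genes for RNAs without a poly(A) tail, 4 were tested and 3 had a positive slope with an unadjusted p under 0.05, and tumours 05 and 07, high in these RNAs, were the highest for Cyp4a14. With their level as a term the count of members was 9, beside 4.38% of all genes, and without tumours 05, 06 and 07 it was 10, beside 5.72%, and the slope of Cyp4a10 was 0.82.

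**Figure D4:**
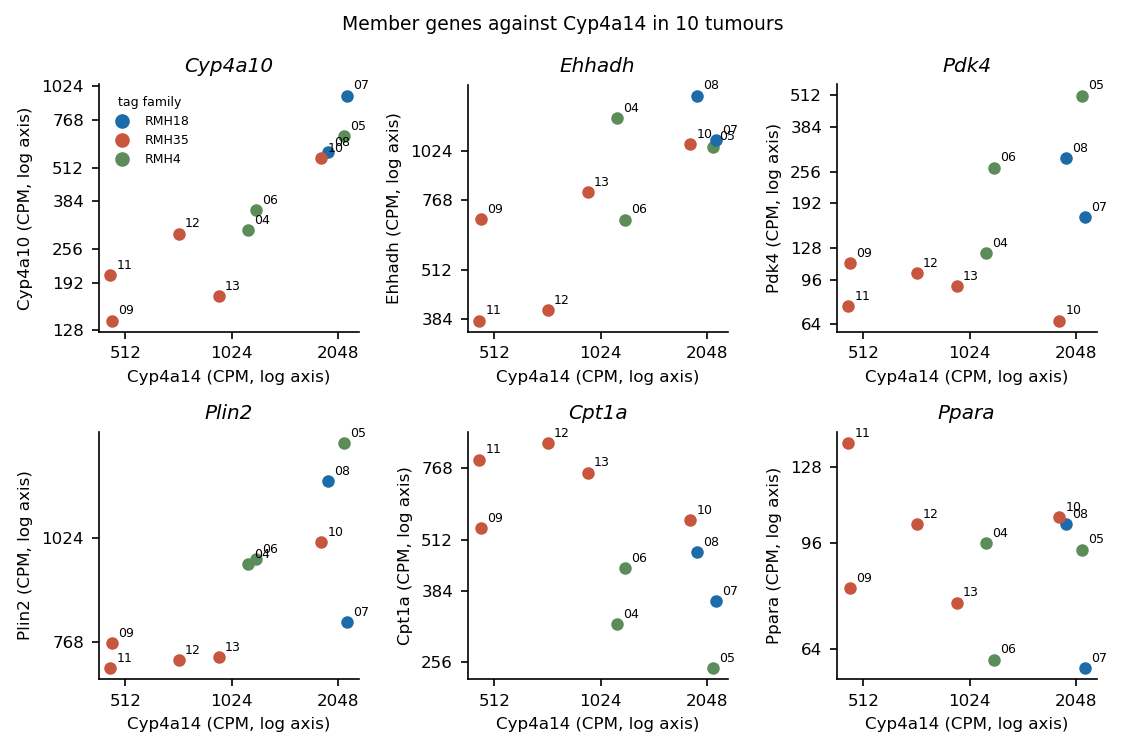
Abundance of 6 genes against that of Cyp4a14 in 10 tumours, in CPM on log axes, with 1 point a tumour, labelled by number and coloured by tag family. The fitted slopes were 0.96 for Cyp4a10, 0.58 for Ehhadh, -0.46 for Cpt1a and -0.15 for Ppara, none of them called, and single tumours lie off these trends, such as tumour 04, the second highest in Ehhadh at a Cyp4a14 level of 1135 CPM.

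A list of further genes regulated by PPARα or acting in fatty acid handling was read beside the members. It holds 60 genes, of which 57 were tested, and edgeR called 0 of them in the Cyp4a14 fit, with 13 at an unadjusted p under 0.05, beside 7.18% of all genes. In the other fits 13 were under that level on Hadha, 6 on Ppara, 4 on Glul, 6 on Mki67 and 12 between the tag families described below, beside 13.4%, 7.24%, 3.79%, 13.8% and 12.7% of all genes. The 5 genes outside the 30 with the smallest p in the Cyp4a14 fit were Ccl5 (-1.67), a T cell chemokine, Aldh1b1 (-2.16), a mitochondrial aldehyde dehydrogenase, Cyp4a31 (0.84), a further Cyp4a gene, Retsat (0.59), which saturates retinol, and Oas1a (-1.37), an interferon-induced enzyme, with slopes in brackets and edgeR adjusted p values of 0.493 to 0.648. Of the 17 genes of mitochondrial β-oxidation and ketogenesis outside the 30, edgeR called 0, and 2 had an unadjusted p under 0.05, beside the same 7.18% of all genes. They were Cpt1b, the muscle form of the shuttle enzyme, with a slope of 0.93 ± 0.35, and Cpt1c, the form of the brain, with -0.67 ± 0.30. Under that level in the other fits were 3 of the 17 on Hadha, 0 on Ppara, 1 on Glul, 5 on Mki67 and 1 between the tag families. The shares of all genes there were 13.4%, 7.24%, 3.79%, 13.8% and 12.7%.

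The transcript of the receptor was tested in the same way. With log2 CPM of Ppara as the covariate, edgeR called 0 of 14785 genes (0%) and 0 of 29 members, and the smallest adjusted p of a member was 0.708. Ppara varied less over tumours than Cyp4a14 (SD of log2 CPM 0.38 and 0.85), so a slope of a given size was harder to detect in this fit. No member had an unadjusted p under 0.05, beside 7.24% of all genes, and DESeq2 called 27 genes (0.194%) but no member. The members nearest to that level were Cpt2 (slope 0.49 ± 0.24, p = 0.0683) and Acadl (0.43 ± 0.22, p = 0.0716). Those under an unadjusted p of 0.05 on Cyp4a14 mostly had the opposite sign on Ppara. Of those positive on Cyp4a14, Cyp4a10 had -0.69 ± 0.69, Acot2 -0.64 ± 0.43, Pdk4 -0.64 ± 0.89 and Acot1 -0.55 ± 0.37 on Ppara. Ehhadh had -0.30 ± 0.56, Acaa1b -0.25 ± 0.47 and Acadvl -0.24 ± 0.21, while Pex11a (0.11 ± 0.55) and Plin2 (0.05 ± 0.31) were positive. Cpt1a, negative on Cyp4a14, had 0.62 ± 0.44. The slope of Cyp4a14 on Ppara was -0.59 ± 0.68 and its sign turned with 2 added terms, to 0.27 with the level of RNAs without a poly(A) tail and to 0.04 with the tag family. Over the 29 members 19 slopes were positive with a median of 0.16, beside 52.6% of all genes and a median of 0.03. The number of members under an unadjusted p of 0.05 was 3 without tumour 05, 3 without tumour 11, 1 without tumour 06 and 1 without tumour 13, beside 9.13%, 5.72%, 6.28% and 8.76% of all genes in these settings. Markers of other cell types stood beside these values, since 6 of 7 endothelial genes and 4 of 6 blood cell genes had negative slopes with an unadjusted p under 0.05, the summed endothelial list running from 54.9 CPM in tumour 11, where Ppara was highest, to 406 CPM in tumour 07, where it was lowest. Of 8 stellate cell and fibroblast genes, 4 (Pdgfrb, Des, Lrat and Dcn) also had negative slopes at that level, with a summed list of 247 CPM in tumour 12 to 1716 CPM in tumour 09. Of 12 circadian clock genes, 5 (Per2, Tef, Dbp, Per3 and Nr1d2) had positive ones. The part of these genes in the values of Ppara was not tested.

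Hadha, a subunit gene of the mitochondrial pathway, was taken as a further covariate. With log2 CPM of Hadha as the covariate edgeR called 1 of 14785 genes (0.00676%) and 0 of 29 members. The called gene was Slc27a1, fatty acid transport protein 1, with a slope of 4.42 ± 0.52 (edgeR adjusted p = 0.0402). It was at 8.44 CPM in tumour 13, had a median of 18.5 CPM and reached 82.5 CPM in tumour 10. The call was lost without tumour 04, 05, 06, 07, 08, 10, 11, 12 or 13, each left out in turn. At an unadjusted p under 0.05 there were 5 of 29 members (17.2%), beside 13.4% of all genes. Of these, 4 slopes were positive and 1 was negative, where 8.62% and 4.82% of all genes had a positive and a negative slope at that level. None of the 5 was a mitochondrial β-oxidation gene, but those genes are too few to be set apart from a share of 13.4%. Angptl4 had a slope of 1.68 ± 0.32 (edgeR adjusted p = 0.142), Pex11a of 1.88 ± 0.51 and Plin2 of 1.07 ± 0.32, while Cpt2 had 0.79 ± 0.35 and Vnn1 -1.98 ± 0.85. DESeq2 called Angptl4 (adjusted p = 0.00132) and Pex11a (adjusted p = 0.0401) among 264 genes in all (1.82%). The slope of Hadhb on Hadha was 0.20 ± 0.41 (unadjusted p = 0.631). Without tumour 07 the number of members under that unadjusted level was 8, beside 12.8% of all genes in that setting. All 6 blood cell genes had negative slopes with an unadjusted p under 0.05, tumour 07, the highest in those genes, was the lowest in Hadha. At the same level 3 of 8 macrophage genes and 2 of 7 endothelial genes had negative slopes, and 3 of 9 genes of the ATF4 response (Ddit3, Chac1 and Trib3) positive ones. The part of these genes in the slopes of the members was not tested.

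**Figure D5:**
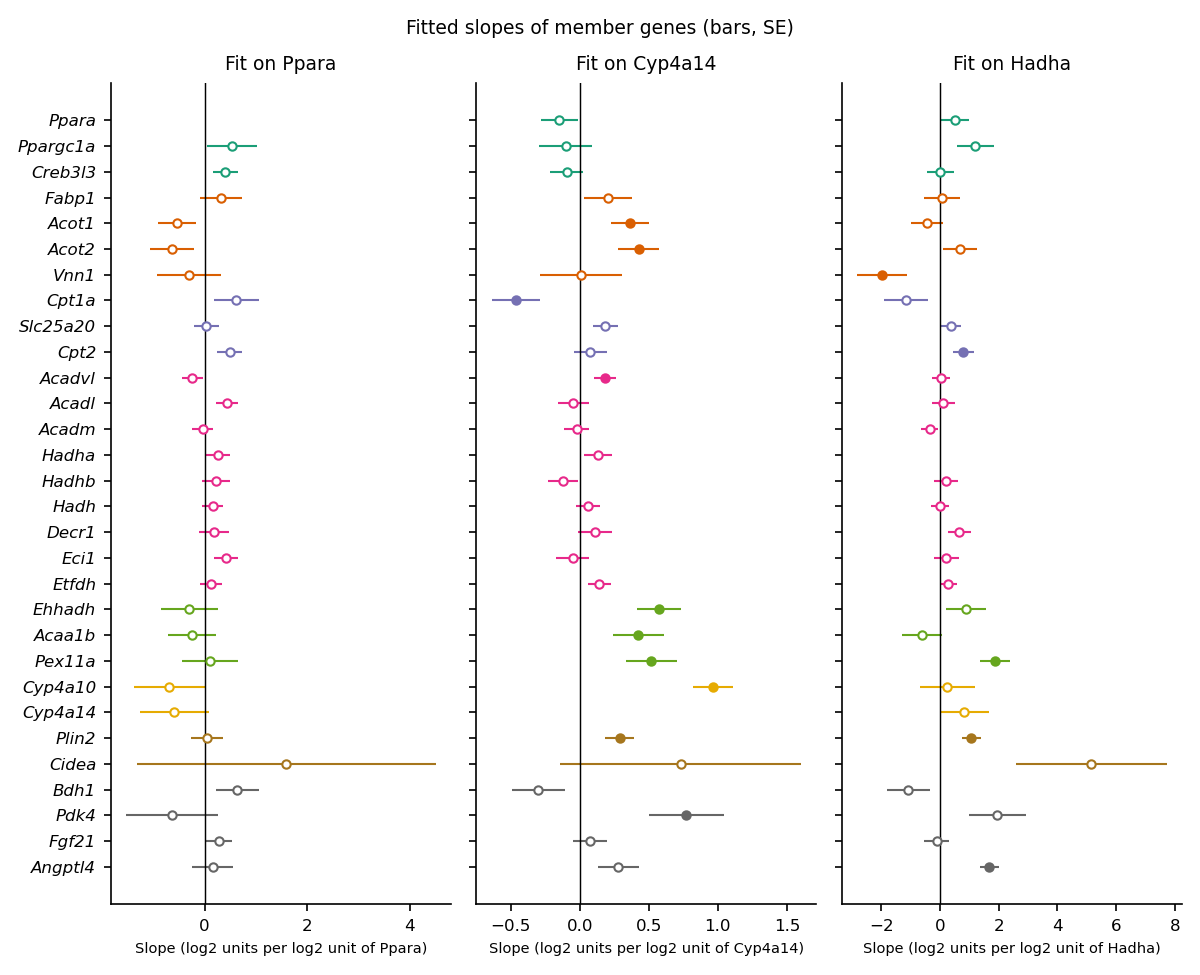
Slopes (points) and their SE (bars) of the 30 genes in fits over 10 tumours on the log2 CPM of Ppara, Cyp4a14 and Hadha, in log2 units per log2 unit, coloured by role. Filled points have an unadjusted p under 0.05, which holds for 0, 10 and 5 genes of 29, beside 7.24%, 7.18% and 13.4% of all genes, and none of them passed an edgeR adjusted p of 0.05.

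Fits were also made for Glul, the β-catenin target that the study stained for, and for Mki67, a marker of dividing cells. On Glul edgeR called 0 of 14785 genes (0%) and 0 of 30 members. Pex11a alone was under an unadjusted p of 0.05 (slope 0.92 ± 0.37, p = 0.0314), beside 3.79% of all genes, and it no longer was without tumour 06, 07, 08 or 11. DESeq2 called 15 genes (0.101%) on Glul and no member. Of the 31-base words of the Glul transcript, 34.9% occur elsewhere in the genome. Positive slopes were found for 25 of 30 members, with a median of 0.20, beside 56.7% of all genes and a median of 0.04. Glul itself was lowest in tumour 09, at 5173 CPM, and next in tumour 11, at 8656 CPM. That gap was past the 95% limit of Dixon's test for an extreme sample. Tumour 09 was also the lowest for 6 members and above the mean log2 CPM for 6 of 30. The part of this tumour in the positive slopes was not tested. Under the same unadjusted level on Glul were 2 of 6 blood cell genes and 3 of 14 genes of the fasting and glucocorticoid response, and their part in these slopes was not tested.

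On Mki67 edgeR called 0 of 14785 genes (0%) and 0 of 30 members, and 3 members were under an unadjusted p of 0.05, beside 13.8% of all genes. The slope was positive for 2 and negative for 1, beside 6.49% and 7.28% of all genes. They were Cidea (slope -2.65 ± 0.60, edgeR adjusted p = 0.145), Cpt1a (0.70 ± 0.23) and Acadl (0.32 ± 0.11). The slope of Cidea was -1.52 with the tag family as a term (edgeR adjusted p = 0.535) and stayed negative in 19 of 19 alternative settings, with adjusted p values of 0.00336 (DESeq2) to 0.612 (edgeR). The number of members was 6 without tumours 04 and 08, beside 15.3% of all genes, 1 with the tag family as a term, beside 10.3%, and 1 with the level of RNAs without a poly(A) tail, beside 7.63%. DESeq2 called 478 genes (3.23%) and 1 member, Cidea, at an adjusted p of 0.00336. Tumour 04, the highest in Cidea, was the lowest in Mki67, at 27.8 CPM, where the median was 53.2 CPM and tumour 08 was highest at 101 CPM. Of the 7 endothelial genes 6, of the 6 blood cell genes 5, of the 8 stellate cell and fibroblast genes 4, and of the 4 genes for RNAs without a poly(A) tail 3, were under the same unadjusted level on Mki67, and their part in the slope of Cidea was not tested. Also under it were 5 of the 17 further genes of mitochondrial β-oxidation and ketogenesis. Whether the slopes of Cpt1a and Acadl go with these was not tested.

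The tag families were compared as groups of 3, 2 and 5 tumours. edgeR called 5 of 14786 genes (0.0338%) and 0 of 30 members, while 7 members were under an unadjusted p of 0.05, beside 12.7% of all genes. Cpt1a (edgeR adjusted p = 0.208) averaged 713 CPM in tumours 09 to 13, 334 CPM in tumours 04 to 06 and 420.2 CPM in tumours 07 and 08. The lowest value of the first family, 547 CPM in tumour 09, lay above the highest of the others, 478 CPM in tumour 08. Pdk4 (edgeR adjusted p = 0.208) had the opposite order, with means of 89.1, 299 and 229 CPM, and its values in tumours 09 to 13 (66.2 to 112 CPM) lay below those of the other 5 tumours (122 to 509 CPM). Cidea averaged 5.63 CPM in tumours 04 to 06, owing to tumours 04 and 05 alone, and 0.387 and 0.632 CPM in tumours 07 and 08 and in tumours 09 to 13. The other 4 were Acot1, Bdh1, Acaa1b and Cyp4a10. DESeq2 called 3 of them, Pdk4, Cpt1a and Cidea, at adjusted p values of 0.00151, 0.00256 and 0.00715, among 588 genes in all (4.01%). Without tumour 04 edgeR called Pdk4 (adjusted p = 0.0351) among 99 genes (0.67%). Without tumour 07 the number under the unadjusted level was 4, beside 10.0% of all genes, and with the level of RNAs without a poly(A) tail as a term it was 2, beside 6.5%. Circadian clock genes stood beside these values, with 9 of 12 under an unadjusted p of 0.05 and the summed list at 165 to 279 CPM in tumours 04 to 09 and at 376 to 658 CPM in tumours 10 to 13. At the same level were 3 of 4 genes for RNAs without a poly(A) tail, 3 of 6 blood cell genes and 4 of 9 genes of the ATF4 response. The part of these genes in the values of Cpt1a, Pdk4 and Cidea was not tested.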

How the data were processed

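RNA was extracted from snap-frozen liver tumours with Trizol, and per the labels libraries of polyadenylated RNA were made with a stranded mRNA kit. Read counts for each gene, not normalised, were deposited by the authors as 1 table with 19 columns, 39179 gene identifiers and 5 summary lines. The submitters' processing notes name TopHat2, HTSeq and GRCm38 with no role or version, while the study's methods describe other tools on GRCm39 for RNA-seq, and whether counting used the strand is not given in the sources used here. Columns were assigned by number, if 1 sample title alone carried it (tumours 04 to 13), and the remaining 9 columns were not used. The labels do not say whether tumours came from separate mice, so p-values measure the spread between these samples, some of which share a tag.

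Symbols came from GENCODE M39 by identifier (34199 of 39179, 87.3%) and positions and upstream sequences from RefSeq on GRCm38.p6. Reads aligned to more than 1 place were 45.4 to 57.9% of all lines. Scaling was by TMM (edgeR 4.0.16, limma 3.58.1, R 4.3.3), and log2 CPM used a prior count of 2. Genes with a mean of at least 0.5 CPM (14786) entered 6 quasi-likelihood fits (robust) over all genes, each on the log2 CPM of 1 gene or on the tag family, with Benjamini-Hochberg adjustment over all genes and a threshold of 0.05. SE was the slope divided by the square root of F. DESeq2 1.42.0 was an alternative. Shared sequence was the share of 31-base words of the canonical transcript found elsewhere in GRCm39. Scripts ran in Python 3.11.15, numpy 2.4.6, pandas 2.3.3 and matplotlib 3.10.9. The Ppara and Cyp4a14 fits were tested on simulated data. There the Ppara fit called far fewer of the changed genes at the smaller of the slopes tried, and fewer at the larger. The members and the 15 further gene lists (197 of 201 genes matched) were chosen with earlier results of these data known. By rule, members were given their lowest, median and highest CPM where they were called in a fit, had an extreme tumour past Dixon's limit, had an SD above 1 log2 unit or formed 1 of 4 named pairs, and the other members given these values, Fabp1 among them, were chosen after their values were seen. Other genes were named as covariates, as the 5 with the smallest p in the Cyp4a14 fit, or from the lists where called, and the rest were chosen after their values were seen.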

Additional observations from a re-analysis of the deposited data

How the results depend on the processing

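No paired analysis was possible because the control columns could not be matched to samples and the fits hold 1 group. With DESeq2 in place of edgeR, 27 genes were called on Ppara, 67 on Cyp4a14, 264 on Hadha, 15 on Glul, 478 on Mki67 and 588 between tag families, and members called were 1 on Cyp4a14, 2 on Hadha, 1 on Mki67 and 3 between families. On Hadha 0 genes were called with the term for RNAs without a poly(A) tail, with the tag family term, without the 2 tumours farthest from the median (05 and 07) and, a setting chosen after seeing the data, without tumours 05, 06 and 07. On Glul 1 gene was called with no filter and 30 with the tag family term. Between tag families 13 genes were called with no filter, 0 with filterByExpr and 0 with the term for RNAs without a poly(A) tail. Members under an unadjusted p of 0.05 on Cyp4a14 were 4 with the tag family term and 4 without tumours 09 and 11, and 4 to 10 when each tumour was left out in turn, beside 4.79 to 9.90% of all genes. In the same leave-one-out series the genes called ranged from 0 to 2 on Cyp4a14, 0 to 1 on Hadha and 0 to 102 between tag families, with 0 to 1 members called between families, and tumour 08 stood alone in its family without tumour 07 and was taken to vary like the others.

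The slopes of 10 pairs of gene and covariate were followed over the alternatives, and signs turned in 4 cases. The slope of Cyp4a14 on Ppara was 0.27 with the term for RNAs without a poly(A) tail and 0.045 with the tag family term, that of Cpt1a on Ppara was -0.0061 with the former, and that of Ppara on Cyp4a14 was 0.0011 without tumour 11, the highest of a leave-one-out range that began at -0.23. The SD of Bdh1 was 0.40 without tumour 05 in place of 0.64. The cause of these differences was not tested. With 10 tumours of 1 group, the fits cannot separate a gene that follows a covariate from another factor that moves both, and Cidea rests on 2 to 146 counts.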

Other observations

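The genes listed beside the 30 spanned a wide range of levels. Of 19 receptors and regulators measured, which include Ppara, Ppargc1a and Creb3l3 of the 30, Hnf4a, a hepatocyte nuclear receptor, was at 747 ± 106 CPM (SD, n = 10) and Rxra, the partner of PPARα, at 570.2 ± 123 CPM, while the related receptors Pparg and Ppard were at 48.8 ± 10.4 and 17.9 ± 4.86 CPM. The coactivator gene Ppargc1b and the deacetylase gene Sirt1 were scarce, at 4.00 ± 1.22 and 6.93 ± 2.27 CPM. The summed level of 17 further genes of mitochondrial β-oxidation and ketogenesis spanned 1.32-fold over tumours. That of 60 further genes regulated by PPARα or acting in fatty acid handling spanned 1.67-fold. The SD of log2 CPM of the single genes had a median of 0.27 in the former list and of 0.50 in the latter.

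A few tumours stood high for some of these genes. Hilpda, a droplet protein induced by hypoxia and by fatty acids, was at 165.6 CPM in tumour 05, next at 60.5 CPM in tumour 06, and had a median of 15.8 CPM. Txnip, a glucose-responsive gene, was at 712 CPM in tumour 07 and 599.6 CPM in tumour 05, next at 182 CPM in tumour 06, and had a median of 77.9 CPM. These genes were picked after their values were seen, and the causes were not tested. No gene of the 30 had a gap between its most extreme tumour and the rest past the 95% limit of Dixon's test for 10 samples.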
